A study of Mus musculus with 8 samples.

Results

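The genes described here encode proteins of the cytosolic ribosome. Of 46 listed genes, 30 were measured by at least 1 probe set that the array annotation assigns to a single gene, 17 of 21 small subunit (Rps) genes and 13 of 25 large subunit (Rpl) genes, among 18193 genes measured in this way on the whole array. One probe set stood for each gene, the one with the highest mean value over the 8 arrays. Of the remaining 16 genes, 15 were found only on probe sets that carry several gene names, and Rpl18 on none. The array study compared purified late spermatocytes, the cells in the long prophase of meiosis, with round spermatids, the haploid cells that follow, in Hr6b knockout and wild type mice. Hr6b (Ube2b) encodes a ubiquitin-conjugating enzyme. The 4 groups were Hr6b-/- and Hr6b+/+ round spermatids and Hr6b-/- and Hr6b+/+ late spermatocytes, 2 arrays each. All animals were males of the FVB background, 4 to 5 weeks old, and the knockout is constitutive, so that somatic cells of the testis and earlier germ cells lacked the enzyme too.

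The cytosolic ribosome translates nearly all cellular mRNAs. Its small subunit decodes the mRNA and its large subunit joins the amino acids, and nearly every ribosomal protein is present as 1 copy per ribosome in most cells, so that the genes are expressed together and at high levels. Ribosomal protein mRNAs begin with a 5′ terminal oligopyrimidine (TOP) tract, through which the mTOR pathway controls their translation. In the testis, transcription is intense in late spermatocytes and round spermatids, many mRNAs are stored without being translated, and some ribosomal proteins have paralogs that are expressed mainly in germ cells.

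Values are RMA log2 values, and a difference between groups is on the log2 scale. A probe set was called higher or lower at an adjusted p under 0.05 from limma, fitted over all 45037 probe sets. The 30 probe sets had a median SD of 0.042 between replicate arrays, and a median standard error of 0.11 for a difference between groups. The targeted gene bore out the labels: Ube2b had 9.70 and 9.69 in knockout spermatocytes against 11.48 and 11.71 in wild type spermatocytes, and 9.89 and 10.05 in knockout spermatids against 12.17 and 12.17 in wild type spermatids. Whether its probe set lies in the deleted part of the gene is not given in the sources used here. All 12 spermatid markers were higher in spermatids than in spermatocytes in both genotypes, and 9 of 10 spermatocyte markers had a negative difference in both. The summed signal (linear scale) of the 12 spermatid markers was 24296 to 33852 in knockout spermatocytes against 5688 to 9024 in wild type spermatocytes. That of 12 Sertoli cell markers was 1429 to 1489 in spermatids of either genotype against 4124 to 5278 in spermatocytes. In either spermatocyte group 8 of these 12 had a mean below a signal of 100. The sums of 6 peritubular cell markers were 426 to 481 in spermatids against 352 to 398 in spermatocytes. Those of 7 blood and macrophage markers were 500 to 654 against 336 to 392, and those of 6 Leydig cell markers 274 to 347 against 310 to 369. The part of these cells in the results below was not tested. In cell fractions, fewer cells that express a gene and less of its RNA per cell cannot be told apart.

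Windows of 60 bases around the annotated start, from 30 bases before it, show the start regions of members at either end of the spermatid to spermatocyte difference. The sequences are from RefSeq, build GRCm38.p6, and are written 5′ to 3′ on the strand of the gene. Capitals mark the longest unbroken run of C and T, or the first of equally long runs. In Rps7 an unmarked run of the same length stands at the end of the window. The first 5 genes are among those with the larger falls in spermatids, and the last 2 had differences close to 0. Rps6 and Rps27 were measured on dim probe sets, with mean values of 6.44 and 7.39.
Rps3, chr7:99483680-99483739, minus strand: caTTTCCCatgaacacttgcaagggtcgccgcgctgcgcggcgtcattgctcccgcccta
Rps6, chr4:86857338-86857397, minus strand: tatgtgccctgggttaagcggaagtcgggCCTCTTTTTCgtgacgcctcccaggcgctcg
Rps15, chr10:80292401-80292460, plus strand: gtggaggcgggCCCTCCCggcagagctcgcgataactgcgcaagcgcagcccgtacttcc
Rps25, chr9:44407684-44407743, plus strand: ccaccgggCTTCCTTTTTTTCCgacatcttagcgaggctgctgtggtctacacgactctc
Rpl4, chr9:64173357-64173416, plus strand: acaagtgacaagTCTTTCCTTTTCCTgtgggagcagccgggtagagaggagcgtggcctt
Rps7, chr12:28635924-28635983, minus strand: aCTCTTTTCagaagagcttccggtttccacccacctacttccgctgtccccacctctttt
Rps27, chr3:90213619-90213678, minus strand: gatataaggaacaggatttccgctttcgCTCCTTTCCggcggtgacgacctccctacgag

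The marked runs of Rps6 and Rps27 span the start, and those of Rps3, Rps15, Rps25, Rpl4 and Rps7 end before it. A run that ends before the annotated start is not in the mRNA as annotated. Of the 46 genes, 38 had a promoter sequence. A run of 8 or more pyrimidines lay anywhere in the window, before the start or after it, in 20 of these (52.6%), against 22.8% of 27025 promoters. In the 300 bases from 250 before to 50 after the start, on either strand, CCGGAAG, the core of the ETS factor motif, was found in 36.8% of the members' promoters against 9.12% of all, AANATGGC, the YY1 core, in 15.8% against 6.23%, and TATAAA in 5.26% against 14.2%. TGACGTCA was found in 7.9% of the members' promoters against 1.88% of all. No 1 of these motifs contains another. A match describes the sequence and is no evidence of binding.

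Ribosomal protein mRNA was lower in round spermatids than in late spermatocytes for most members. In the knockout 18 of 30 were lower and none was higher, with a median difference of -0.50, and in wild type 24 were lower and none was higher, with a median of -0.64. The difference reached 2-fold for 6 members in the knockout, among them Rps3 and Rpl4, and for 9 in wild type. The 18 members that were lower in the knockout were lower in wild type as well, 6 more were lower in wild type alone, and the remaining 6 were called in neither. The median of 12 further listed genes, measured only on probe sets whose other names are pseudogenes, was -0.50 in the knockout with 9 lower and none higher, and -0.57 in wild type with 10 lower and none higher.

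Lower signal in spermatids was common on these arrays. Among all probe sets 28.7% were lower and 34.2% higher in the knockout, and 27.3% were lower and 26.0% higher in Hr6b+/+ cells. Of the 17597 probe sets with a signal of 100 or more on at least 4 arrays, which include 28 of the 30 members, 55.1% were lower and 30.5% higher in the knockout, and 50.0% were lower and 32.6% higher in wild type. Of the 28 members, 64.3% were lower in knockout spermatids and 82.1% in wild type spermatids. The median difference of the expressed probe sets was -0.55 in the knockout, against -0.50 for the members, and -0.34 in wild type, against -0.64 for the members. The direction depends on the scaling in the knockout: with the medians of the expressed probe sets set equal, which adds 0.53 to every difference between stages in the knockout and 0.32 in wild type, 8 members were lower and 11 higher in the knockout (median 0.038) and 17 were lower and 3 higher in wild type (median -0.32). After cyclic loess normalisation 12 were lower and 3 higher in the knockout, and 20 were lower and 1 higher in wild type. The shares of all probe sets called under these scalings were not counted.

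**Figure D1:**
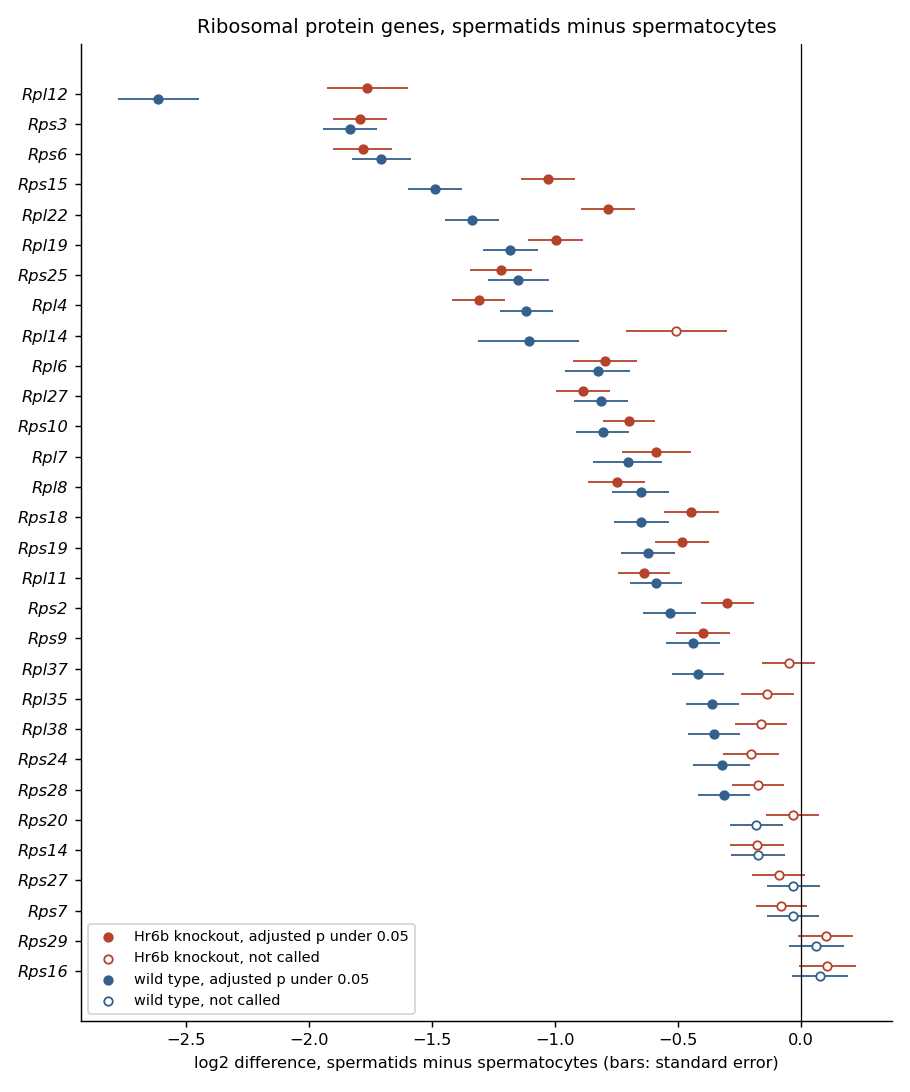
Log2 difference (spermatids minus spermatocytes, x axis) of 30 ribosomal protein genes in Hr6b knockout (red) and wild type (blue), with standard errors from 2 arrays per group; filled points were called at an adjusted p under 0.05. In the deposited values 28 of 30 differences lie below 0 in each genotype, although with equal expressed medians 11 members were higher in the knockout and 3 in wild type.

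Of the small subunit genes, 9 of 17 were lower in knockout spermatids and 11 of 17 in wild type spermatids. Rps3 encodes a protein at the mRNA entry channel that also acts in DNA repair. It had 10.86 and 10.77 in knockout spermatids against 12.61 and 12.61 in knockout spermatocytes, and 10.84 and 10.75 in wild type spermatids against 12.59 and 12.67 in wild type spermatocytes. The stages were far apart and the genotypes overlapped. The difference was -1.80 in the knockout (standard error 0.11, adjusted p = 1.85e-07 from limma) and -1.84 in wild type (adjusted p = 1.74e-07), 3.57-fold lower. The other probe sets of Rps3 did not move together: 1 with a mean value of 5.81 had -3.54 in wild type, and 1 with a mean of 6.74 had 0.67.

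Rps15 encodes a protein of the small subunit head that is needed for export of the subunit from the nucleus. It had 12.04 and 12.15 in knockout spermatids against 13.12 and 13.14 in knockout spermatocytes, and 11.64 and 11.59 in wild type spermatids against 13.08 and 13.13 in wild type spermatocytes. The difference was -1.03 in the knockout (adjusted p = 1.35e-05 from limma) and -1.49 in wild type (adjusted p = 8.13e-07). Its second probe set gave -1.11 and -1.37.

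Rps6 encodes the substrate of S6 kinase, the best known phosphorylated ribosomal protein, and Rps25 a protein used in initiation at internal ribosome entry sites. The chosen probe set of Rps6 was dim, with 5.46 and 5.53 in knockout spermatids against 7.24 and 7.31 in knockout spermatocytes, and 5.59 and 5.68 in wild type spermatids against 7.24 and 7.46 in wild type spermatocytes. Its spermatid values lie below a signal of 100, and the differences were -1.78 (adjusted p = 3.68e-07 from limma) in the knockout and -1.71 (adjusted p = 5.8e-07) in wild type. With a brighter probe set shared with a pseudogene, used after seeing the data, they were -0.51 and -0.58, both called. Rps25 had 9.64 and 9.82 in knockout spermatids against 10.95 and 10.95 in knockout spermatocytes, a difference of -1.22, and 9.68 and 9.43 in wild type spermatids against 10.69 and 10.72 in wild type spermatocytes, a difference of -1.15. With a brighter probe set that it shares with a pseudogene, the knockout difference of Rps25 was -0.24 (adjusted p = 0.0771).

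Rps10, Rps18 and Rps19, proteins of the small subunit head, were lower by less. Their differences were -0.70, -0.45 and -0.49 in Hr6b-/- cells and -0.81, -0.65 and -0.62 in Hr6b+/+ cells. Mutations of human RPS19 are a cause of Diamond-Blackfan anaemia. Rps2, near the mRNA entry channel, had -0.30 in Hr6b-/- cells and -0.53 in Hr6b+/+ cells, and Rps9 had -0.40 and -0.44. The other probe sets of Rps9 went against the chosen one in wild type: 1 with a mean value of 7.34 had 1.22, and 1 with a mean of 5.46 had 0.55 (adjusted p = 0.0389 from limma). With the mean over its probe sets, Rps9 was called higher in spermatids of both genotypes, with 0.34 (adjusted p = 0.0404) in Hr6b-/- cells and 0.44 (adjusted p = 0.0147) in Hr6b+/+ cells.

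**Figure D2:**
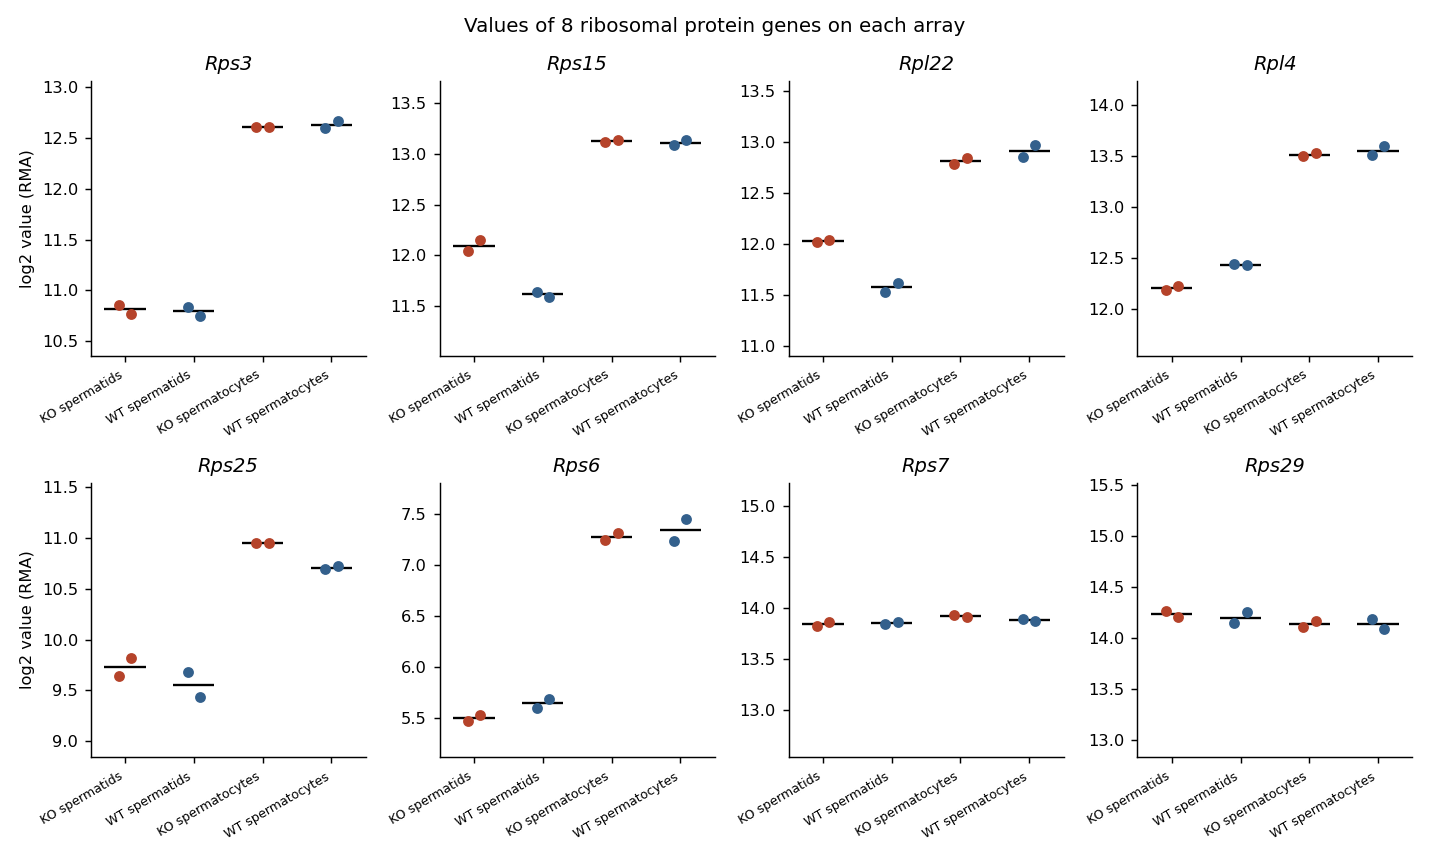
RMA log2 values (y axis, with the same span in each panel) of 8 members on each array in knockout and wild type spermatids and spermatocytes; points are arrays and lines are means of 2 arrays. Rps3, Rps15, Rpl22, Rpl4, Rps25 and Rps6 are lower in spermatids of both genotypes, also with equal expressed medians except that Rpl22 in the knockout was then not called (-0.25, adjusted p = 0.0627 from limma), Rps15 and Rpl22 separate by genotype in spermatids, and Rps7 and Rps29 stay within 13.8 to 14.3 but were called higher in spermatids of both genotypes with equal expressed medians.

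In the deposited values all 13 large subunit genes were lower in wild type spermatids, and 9 of 13 were lower in knockout spermatids. Rpl4, whose protein lines the exit tunnel of the nascent peptide, had 12.18 and 12.23 in knockout spermatids against 13.50 and 13.53 in knockout spermatocytes, and 12.44 and 12.43 in wild type spermatids against 13.51 and 13.60 in wild type spermatocytes. The difference was -1.31 in the knockout (standard error 0.11, adjusted p = 1.8e-06 from limma) and -1.12 in wild type. Rpl19, whose protein makes a bridge to the small subunit, had 11.77 and 11.85 in knockout spermatids against 12.80 and 12.82 in knockout spermatocytes, a difference of -0.998. In wild type it had 11.68 and 11.70 in spermatids against 12.79 and 12.95 in spermatocytes, a difference of -1.18.

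Rpl22 encodes a protein that is not needed for the growth of most cells but is needed for the development of T cells. It had 12.02 and 12.04 in knockout spermatids against 12.78 and 12.85 in knockout spermatocytes, and 11.53 and 11.62 in wild type spermatids against 12.85 and 12.97 in wild type spermatocytes. The difference was -0.79 between the stages in Hr6b-/- cells and -1.34 in Hr6b+/+ cells (adjusted p = 2.18e-06 from limma). Rpl12, of the stalk base where translation factors bind, had the most negative wild type value on a dim probe set, the 1 probe set with its name alone. It had 5.19 and 5.13 in knockout spermatids against 7.17 and 6.67 in knockout spermatocytes, and 4.65 and 4.57 in wild type spermatids against 7.35 and 7.09 in wild type spermatocytes, differences of -1.76 and -2.61. With a brighter probe set that it shares with a pseudogene, used after seeing the data, the differences of Rpl12 were -0.65 in the knockout and -0.64 in wild type, both called.

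The remaining large subunit genes had smaller differences. Rpl27, Rpl6, Rpl7, Rpl8 and Rpl11 had -0.89, -0.80, -0.59, -0.75 and -0.64 in Hr6b-/- cells and -0.81, -0.83, -0.71, -0.65 and -0.59 in Hr6b+/+ cells, each called in both. RPL11 also binds and inhibits MDM2, the ubiquitin ligase of p53. Rpl35, Rpl37 and Rpl38 were called lower in wild type alone, with -0.36, -0.42 and -0.35 there and -0.14, -0.05 and -0.16 in the knockout. That call in 1 genotype is no difference between genotypes, which is tested below. With equal expressed medians all 3 were called higher in knockout spermatids, with 0.40, 0.48 and 0.37 (adjusted p = 0.00673, 0.00237 and 0.0105 from limma), and Rpl37 was also called higher there after cyclic loess, with 0.62. In wild type the equal medians setting adds 0.32, close to the size of the falls of these genes there. Rpl14 was dim, below a signal of 100 on all arrays, with -0.51 (adjusted p = 0.0535 from limma) in the knockout and -1.11 in wild type.

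Of the small subunit genes 6 were called in neither genotype. Rps7 had 13.83 and 13.87 in knockout spermatids against 13.94 and 13.92 in knockout spermatocytes, and 13.84 and 13.87 in wild type spermatids against 13.89 and 13.88 in wild type spermatocytes. Rps29 had 14.26 and 14.21 in knockout spermatids against 14.10 and 14.17 in knockout spermatocytes, and 14.14 and 14.25 in wild type spermatids against 14.18 and 14.09 in wild type spermatocytes. The 4 groups of either gene lie within 0.2 of each other. Rps14 and Rps20 had -0.18 and -0.03 in Hr6b-/- cells and -0.18 and -0.18 in Hr6b+/+ cells. Rps27 had -0.09 and -0.03 on a dim probe set with a mean value of 7.39. Rps16, whose probe set was below a signal of 100 on every array, had 0.11 and 0.08. With equal expressed medians all 6 were called higher in knockout spermatids, among them Rps29 with 0.63 and Rps7 with 0.45, and Rps7, Rps16 and Rps29 were called higher in wild type spermatids. After cyclic loess Rps27 was called higher in both genotypes and Rps29 in the knockout.

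The members that changed little include those with the brightest probe sets. The 9 members whose mean value was at or above 13.01, the average 99th percentile of the arrays, had a median wild type difference of -0.31, with 5 called lower. The other 19 members with a signal of 100 or more on at least 4 arrays had a median of -0.81, with 18 called lower. This division was chosen after the values were seen, and the part of the signal level in the size of the differences was not tested. Beyond the chosen ones, 31 expressed probe sets of 15 members carried a single name, and 23 of these were lower and 2 higher in wild type spermatids. Of the 31, 26 lay within 0.25 of the difference of the chosen probe set.

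**Figure D3:**
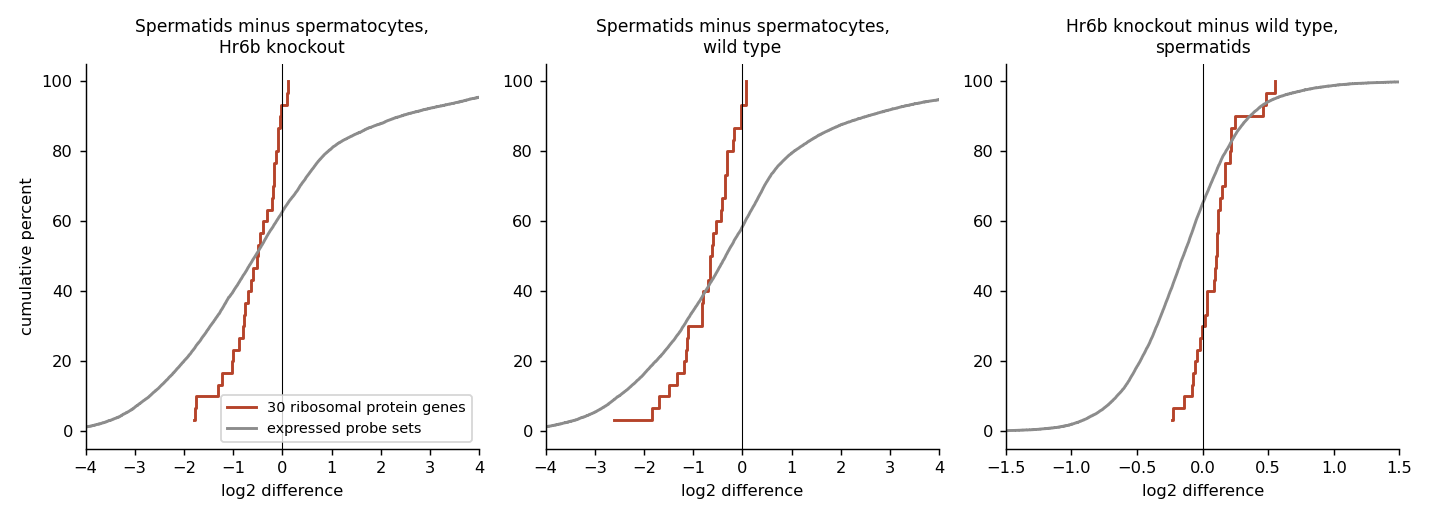
Cumulative percent (y axis) of the 30 members (red) and of 17597 expressed probe sets (grey) against the log2 difference (x axis, cut at 4 or 1.5 on each side). Members have a median of -0.50, -0.64 and 0.11 in the 3 comparisons and expressed probe sets -0.55, -0.34 and -0.15; with equal expressed medians the first member median is 0.038.

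In round spermatids, Rps15 and Rpl22 were higher in the knockout than in wild type, and no member was lower on its chosen probe set. Among all probe sets 4.83% were higher and 9.63% lower, and among the expressed ones 6.09% were higher and 20.8% lower, so that 2 higher of 30 is near the background. Rps15 had 12.04 and 12.15 in knockout spermatids against 11.64 and 11.59 in wild type spermatids, a difference of 0.48 (standard error 0.11, adjusted p = 0.0165 from limma), 1.40-fold. Rpl22 had 12.02 and 12.04 in knockout spermatids against 11.53 and 11.62 in wild type spermatids, a difference of 0.46 (standard error 0.11, adjusted p = 0.0223), 1.37-fold. The second probe set of Rpl22 had 0.50 (adjusted p = 0.0221 from limma) and that of Rps15 0.31 (adjusted p = 0.0923). Another, dimmer probe set of Rpl22 had 0.26 (adjusted p = 0.505), and with the mean over its probe sets Rpl22 lost the call (0.40, adjusted p = 0.0695 from limma). Both calls were lost when any 1 of the 4 spermatid arrays was left out, where the adjusted p was 0.0524 to 0.0871 for Rps15 and 0.0669 to 0.12 for Rpl22.

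Most other members lay slightly above wild type. The median was 0.11, with 21 of 30 differences above 0, while the median of the expressed probe sets was -0.15 and that of all probe sets 0.02. The arrays of the genotypes did not overlap for 15 members with the knockout higher and for 4 with the knockout lower, against 28.1% and 27.4% of all probe sets. Rpl12 had 5.19 and 5.13 in knockout spermatids against 4.65 and 4.57 in wild type spermatids, a difference of 0.55 (adjusted p = 0.0522 from limma) below a signal of 100. Rpl37, Rps2 and Rps20 had 0.25, 0.22 and 0.21, and the lowest were Rpl4 and Rpl27 with -0.23 each, Rps6 with -0.15 and Rpl11, Rps14 and Rpl8 with -0.08, -0.07 and -0.06, none of them called. With equal expressed medians, which adds 0.18 to every genotype difference in spermatids, 7 members were higher and none lower, and after cyclic loess 6 were higher and none lower. The member medians were then 0.29 and 0.30, against 0.036 and 0.024 for the expressed probe sets. The shares of all probe sets called under these scalings were not counted. Rps2, Rps15, Rps19, Rps20, Rpl22 and Rpl37 were called under both scalings, genes named after their values were seen. Of 12 Sertoli cell markers 2 were higher and 1 lower in knockout spermatids, with 10 differences above 0 and a median of 0.37. Of 6 Leydig cell and 6 peritubular cell markers none was called, with 5 above 0 in each list. Of 12 spermatid markers 3 were higher, with 9 above 0. Of 10 spermatocyte markers 2 were lower, with 9 differences below 0 and a median of -0.30. Of 9 spermatogonial markers 2 were higher, with 8 differences above 0, and of 7 blood and macrophage markers 2 were higher, with 6 above 0. Their part in these values was not tested.

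**Figure D4:**
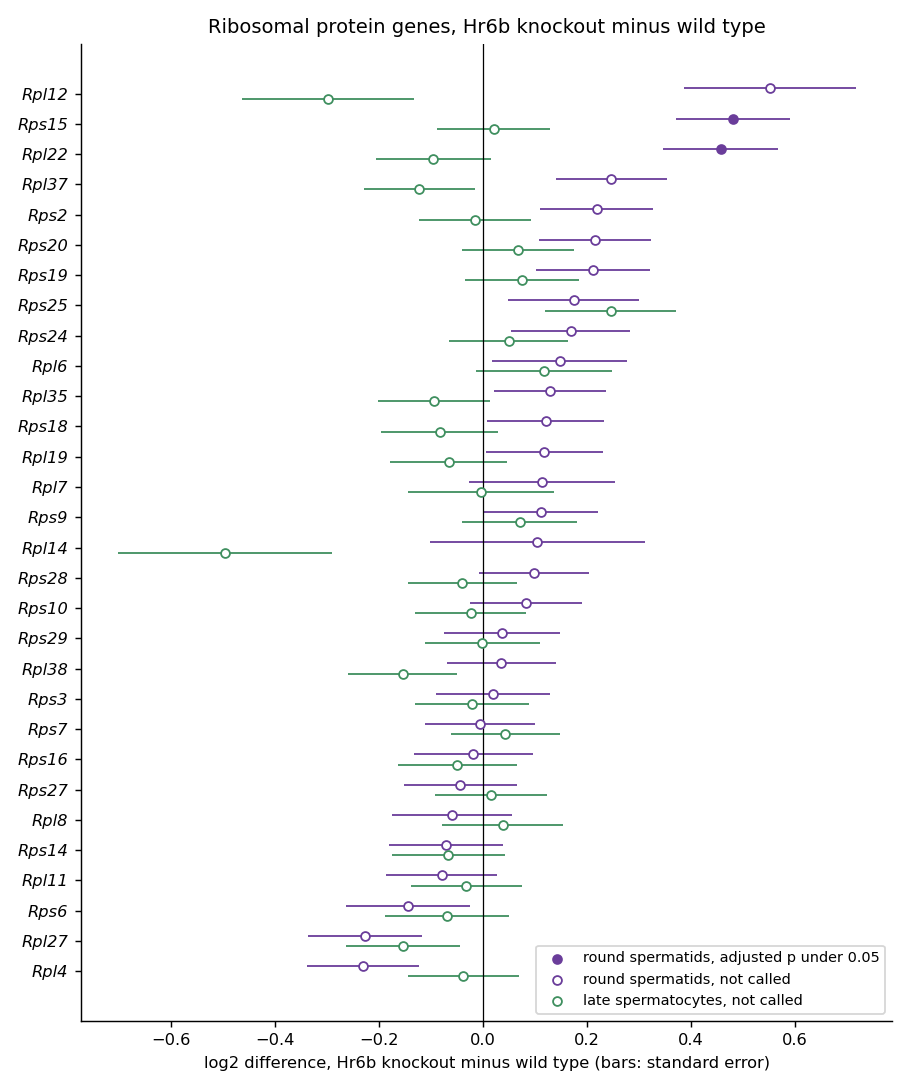
Log2 difference (Hr6b knockout minus wild type, x axis) of the 30 members in round spermatids (purple) and late spermatocytes (green). Bars are limma standard errors, pooled over all 8 arrays and moderated over all probe sets. Filled points were called. Rps15 at 0.48 and Rpl22 at 0.46 in spermatids are the called members, and no member was called in spermatocytes.

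In late spermatocytes no member was called on its chosen probe set in the limma fit, and 1 of 30, Rpl14, had an unadjusted p under 0.05. Among all probe sets 1.18% were called higher and 0.413% lower in the knockout. The median of the members was -0.028, and 28 of 30 lay within 0.25 of wild type. The arrays did not overlap for 4 members with the knockout higher and for 10 with the knockout lower, against 19.7% and 21.7% of all probe sets. The most positive was Rps25, with 10.95 and 10.95 in knockout spermatocytes against 10.69 and 10.72 in wild type spermatocytes, a difference of 0.24 (standard error 0.13, adjusted p = 0.538 from limma). Rpl6, Rps19, Rps9, Rps20 and Rps24 followed with 0.12, 0.07, 0.07, 0.07 and 0.05. The most negative was the dim Rpl14, with 5.41 and 4.71 in knockout spermatocytes against 5.64 and 5.47 in wild type spermatocytes, a difference of -0.50 (adjusted p = 0.401). Rpl12, Rpl38, Rpl27, Rpl37 and Rpl22 had -0.30, -0.16, -0.15, -0.12 and -0.10. The spermatid markers moved in the same comparison, with 9 of 12 higher in knockout spermatocytes and a median of 1.81.

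The genotype difference was compared between the stages by the interaction term. No member passed, 4 of 30 had an unadjusted p under 0.05, and among all probe sets 1.46% had a more positive and 3.14% a more negative effect in spermatids. The 4 were Rpl12, Rpl22, Rps15 and Rpl37, with 0.85, 0.55, 0.46 and 0.37 (adjusted p = 0.0684, 0.075, 0.117 and 0.187 from limma), chosen for naming after their values were seen. The median over the members was 0.11, against -0.20 for the expressed probe sets. The interaction of Rpl22 and Rps15 was called after cyclic loess, those of Rpl12, Rpl22 and Rps15 with equal expressed medians, and those of Rpl12 and Rpl22 with the probe sets limited to the expressed ones.

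Other genes of the translation machinery were examined as lists. Between stages, 55.1% of expressed probe sets were lower and 30.5% higher in the knockout, and 50.0% and 32.6% in wild type. Among all probe sets 28.7% were lower and 34.2% higher in the knockout, and 27.3% and 26.0% in wild type. Of 14 further ribosomal protein genes measured, 5 were lower and 1 higher in knockout spermatids than in knockout spermatocytes, and 8 were lower and 1 higher in wild type, with medians of -0.25 and -0.39. None was called between genotypes. Of 54 genes of ribosome biogenesis, 41 were lower and 3 higher in spermatids in the knockout, and 40 were lower and 2 higher in wild type, with medians of -1.15 and -0.82. Of 73 mitochondrial ribosomal protein genes, 60 were lower and 3 higher in the knockout and 57 were lower and 6 higher in wild type, with medians of -1.11 and -1.12. Of 37 translation factor genes, 18 were lower and 6 higher in the knockout and 17 were lower and 8 higher in wild type, and of 16 genes that control TOP mRNAs, the mTOR pathway and RNA-binding proteins such as LARP1, 10 were lower in each genotype, with 4 higher in the knockout and 5 in wild type. With equal expressed medians the ribosome biogenesis and mitochondrial lists still had 32 and 40 genes lower against 10 and 12 higher in the knockout, and 37 and 46 lower against 7 and 10 higher in wild type. The further ribosomal protein genes then had 2 lower and 8 higher in the knockout and 4 lower and 2 higher in wild type, and the translation factor genes 9 lower and 19 higher in the knockout and 11 lower and 13 higher in wild type.

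Between genotypes in spermatids, 10 ribosome biogenesis genes were lower and 3 higher in the knockout, with a median of -0.20. Of the mitochondrial ribosomal protein genes 7 were lower and 2 higher, of the translation factor genes 2 were lower and 4 higher, and of the genes that control TOP mRNAs 4 were lower and none higher. Among the expressed probe sets 20.8% were lower and 6.09% higher, and among all probe sets 9.63% were lower and 4.83% higher. With equal expressed medians these counts were 7 lower and 8 higher for ribosome biogenesis, 2 lower and 6 higher for the mitochondrial genes, 1 lower and 5 higher for translation factors and 2 lower and 2 higher for control of TOP mRNAs, and 4 of the further ribosomal protein genes were higher. In spermatocytes 1 translation factor gene was higher in the knockout and no other gene of these lists was called.

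Paralogs of ribosomal protein genes differed in direction between the stages, with 6 of 9 measured. Rpl22l1, the paralog of Rpl22, whose mRNA the RPL22 protein is known to repress in mouse cells, had 12.41 and 12.44 in knockout spermatids against 12.33 and 12.30 in knockout spermatocytes, a difference of 0.11 (adjusted p = 0.407 from limma). In wild type it had 12.58 and 12.47 in spermatids against 12.10 and 12.03 in spermatocytes, a difference of 0.46 (adjusted p = 0.00479). Rps27l, a p53 target, had -0.73 in Hr6b-/- cells and -0.81 in Hr6b+/+ cells, and Rpl7l1 had -2.75 and -1.98, all lower in spermatids. Rpl3l, best known in muscle, was dim and higher, with 0.98 and 0.57. Rpl39l, which is expressed in male germ cells, had 13.92 and 13.91 in knockout spermatids against 13.76 and 13.78 in knockout spermatocytes, and 13.95 and 13.91 in wild type spermatids against 13.84 and 13.82 in wild type spermatocytes. Its differences of 0.14 and 0.11 were not called, and neither were those of Rps4l, -0.04 and 0.01. With equal expressed medians Rpl22l1, Rpl39l, Rps4l and Rpl3l were higher in spermatids of both genotypes, and Rps27l was lower in wild type alone. After cyclic loess Rpl22l1 was higher in both genotypes, Rpl39l, Rps4l and Rpl3l were higher in the knockout alone, and Rps27l was lower in wild type alone. In the deposited values no paralog was called between genotypes in either stage.

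**Figure D5:**
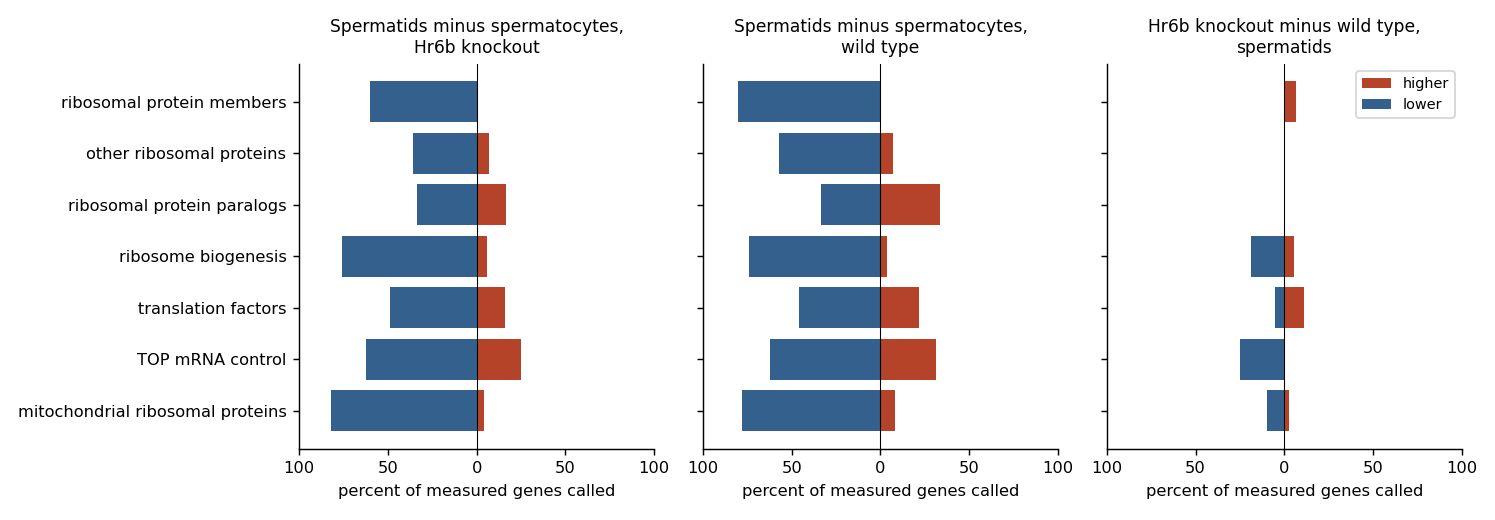
Percent of measured genes (x axis) called higher (red, right of 0) or lower (blue, left of 0) in each gene list of the translation machinery, for spermatids minus spermatocytes in each genotype and for knockout minus wild type in spermatids. In the deposited values, lower calls outnumber higher ones between stages for every list except the paralogs in wild type. Of 30 members 18 and 24 were lower. Expressed probe sets lean the same way, with 55.1% lower and 30.5% higher in the knockout and 50.0% and 32.6% in wild type. With equal expressed medians 11 members were higher and 8 lower in the knockout, and the translation factors and further ribosomal proteins turned as well.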

How the data were processed

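The authors hybridised biotin-labelled cRNA to Affymetrix mouse expression arrays and deposited RMA-normalised log2 values, used here as deposited. RMA and limma are named in the submitters' processing notes without versions. Of 45037 probe sets, with 64 control probe sets left out, the platform annotation gives 34945 a single gene name, 932 several and 9160 none. The brightest probe set with a single name stood for each gene. The model of limma 3.58.1 in R 4.3.3 had 1 mean per group and used all 8 arrays (4 residual and 5.85 prior degrees of freedom), with Benjamini-Hochberg adjustment over all probe sets and a threshold of 0.05. The pipeline was tested on simulated data. The members and lists were chosen with earlier results of these data known. Named genes were the members called between genotypes, the 6 members at each end of every comparison of 2 groups, and the paralogs between stages. Other names are given with other members of their subunit or as chosen after their values were seen. The methods speak of replicate experiments without the number of mice behind each array, so a p-value here covers only the spread among these arrays, which may be technical. The number of arrays limits the precision, and 2 arrays against 2 allow no exact permutation p under 0.333. Alternatives were other normalisations, a signal filter, other probe set choices, a replicate block, a fit on 4 arrays alone and leaving out each array.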

Additional observations from a re-analysis of the deposited data

Results flagged for a closer look

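Probe sets that were not chosen for their gene were higher in knockout spermatids for 2 members. The second probe set of Rpl22 had a log2 difference of 0.50, close to the 0.46 of the chosen one. A probe set of Rps3 with a mean value of 6.74 had 0.52 (adjusted p = 0.0351 from limma), where the chosen probe set had 0.02. For Rps24 a dim probe set with a mean value of 5.81 was lower in the knockout in both stages. It had -0.90 (adjusted p = 0.00336 from limma) in spermatids and -0.70 (adjusted p = 0.0431) in spermatocytes. The chosen probe set of Rps24 had 0.17 and 0.05. No outlier was sought among arrays, since a group holds 2.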

How the results depend on the processing

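The counts of members depended on the scaling. Between genotypes in spermatids, 2 members were higher, against 6 after cyclic loess, 7 with equal expressed medians, 1 with the mean over probe sets and 0 to 3 with 1 array left out. In the knockout, 0 members were higher in spermatids than in spermatocytes, against 3 after cyclic loess, 11 with equal expressed medians, 1 with the mean over probe sets and 1 without the cross-hybridising probe set types, and 18 were lower, against 8 with equal expressed medians. There the median turned to 0.038. In wild type 0 were higher, against 1, 3, 1 and 1 under the same 4 settings. The interaction was called for 2 members after cyclic loess, for 3 with equal expressed medians and for 2 among expressed probe sets. The median between genotypes in spermatocytes, -0.028, was -0.058 to 0.0078 with 1 array left out, and turned positive without replicate 2 of the wild type spermatocytes. The cause was not tested. With 1 array left out, members lower in spermatids numbered 16 to 18 in the knockout and 20 to 24 in wild type. Of 238 values of 14 called differences under the alternatives, none reversed and 10 lost the call. The 14 were chosen for large differences or a call between genotypes. Settings such as the replicate block leave a difference unchanged. Outside the 14, Rps9 turned from -0.44 to a called 0.44 in wild type with the mean over its probe sets.

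The labels do not say whether same-numbered arrays share a preparation. Their deviations from the group means correlated at -0.23 to 0.22, which cannot decide it with 2 arrays per group. With the replicate block 3 members were higher between genotypes in spermatids, with Rpl12 added, 19 were lower between stages in the knockout and 24 in wild type. With the numbers of the wild type spermatid arrays crossed, chosen after seeing the data, the counts were 3, 18 and 24. Adding probe sets shared with pseudogenes, also chosen after seeing the data, gave 42 genes, of which 2 were higher between genotypes in spermatids, 27 were lower between stages in the knockout and 33 in wild type.

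Limits are the 2 arrays per group and the 16 of 46 genes without a probe set of their own. Others are the dim probe sets of Rps6, Rps16, Rps27, Rpl12 and Rpl14, and probe sets near the top of the range. Under the equal medians setting every difference moves by the same amount, so its counts follow from that shift. No share of all probe sets called was counted for that setting or for cyclic loess, so member and list counts under them lack a background.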
